A study of Mus musculus with 20 samples.

Results

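Read counts of 35 genes that make GDP-mannose, build the lipid-linked sugar chain of N-glycosylation, transfer it to proteins and trim it were followed in mouse liver across 2 feeding states and 2 genotypes of the transcription factor Prox1. The 35 symbols were listed because Gmppb, which encodes the catalytic subunit of GDP-mannose pyrophosphorylase, had shown the strongest evidence of a rise with refeeding in these same counts, and the others belong to the pathways it feeds. All 35 symbols were found among the 29915 genes of the count table, and all 35 passed the filter on low counts, which left 13894 genes to test. Since refeeding chose the list, the refeeding values of these genes are given as a description, with counts of calls set beside those of all genes but no p-value for a gene, and only the genotype comparisons and the interaction are read as tests.

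Livers came from male mice on regular chow under 12 h of light and 12 h of dark. K556R mice carried a SUMO-deficient Prox1 (K556R) knock-in that Cre recombination switched on in hepatocytes at 8 weeks of age, wild-type mice are the controls, and all livers were taken 11 weeks later at Zeitgeber times 15 to 17. The 4 groups of 5 libraries are refed K556R, refed wild type, fasted K556R and fasted wild type, and 14 libraries belong to batch 1 and 6 to batch 2, which holds 3 of the refed K556R libraries and 1 of each other group. The titles call the genotypes Cre and Ctrl, so effects of Cre and of K556R cannot be told apart, and since no label says that the repeats are separate animals, p-values measure the spread between these libraries. How the fast and the refeeding were timed is not given in the sources used here.

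N-glycosylation attaches a preassembled sugar chain to asparagines of proteins that enter the endoplasmic reticulum, and the liver, which secretes most plasma glycoproteins, is a major site of it. The chain grows on the lipid dolichol, first on the cytosolic face of the membrane from UDP-N-acetylglucosamine and GDP-mannose, then on the lumenal face from dolichol-phosphate-mannose and dolichol-phosphate-glucose. The oligosaccharyltransferase complex moves the finished chain to the protein, and glucosidases and a glucosyltransferase then add and remove glucose while the protein folds.

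Count totals ran between 33746054 and 50647297 per library, and the smallest count of any of the 35 genes in any library was 87, for Pmm1 in a fasted wild-type liver. Pck1, a gluconeogenic gene that fasting induces, ranged over 597 to 2393 CPM in refed K556R livers and 686 to 1427 CPM in refed wild-type livers, against 4871 to 7276 CPM in fasted K556R livers and 5080 to 8016 CPM in fasted wild-type livers, which matches the feeding labels. CPM are counts scaled to a common library size after TMM normalization. Prox1 itself ranged over 57.7 to 89.4 CPM in refed K556R livers and 93.3 to 133 CPM in refed wild-type livers, and over 85.0 to 126 CPM in fasted K556R livers and 121 to 223 CPM in fasted wild-type livers. Gene counts do not show which Prox1 allele the reads came from. K556R refed 1_b1 and K556R fasted 1_b1 (replicate 1 of batch 1 in each group) stood apart, with summed CPM of 5 proliferation markers of 20.1 and 12.0, against at most 8.25 in any other library, and of 5 lymphocyte markers of 4.25 and 4.90, against at most 2.01. Wild type fasted 2_b1 had the highest sum of 4 Kupffer cell markers, 167 CPM, followed by K556R refed 1_b1 at 115 CPM, with at most 77.6 CPM elsewhere. Hepatic stellate markers summed to 120.1 to 249 CPM and cholangiocyte markers to 26.8 to 47.4 CPM over all libraries. None of these markers was at 0 in all libraries, and values without the 2 K556R libraries are given beside the results they could touch. Library values are listed throughout in the order 1_b1, 1_b2, 2_b1, 2_b2 and 3_b2 for refed K556R livers, and 1_b1, 1_b2, 2_b1, 3_b1 and 4_b1 for the other groups.

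GDP-mannose synthesis held the widest feeding difference of the list. Gmppb had 19.5, 21.1, 20.7, 23.5 and 20.7 CPM in refed K556R livers, and 23.0, 21.97, 23.2, 23.5 and 20.9 CPM in refed wild-type livers. The fasted values were 7.35, 7.88, 6.54, 7.17 and 6.68 CPM in fasted K556R livers, and 6.76, 7.58, 8.08, 6.99 and 7.06 CPM in fasted wild-type livers. Every refed library lay above every fasted library, with no overlap in either genotype. The refed mean was 21.1 ± 1.47 CPM in K556R livers and 22.5 ± 1.10 CPM in wild-type livers, against 7.12 ± 0.538 CPM in fasted K556R livers and 7.29 ± 0.530 CPM in fasted wild-type livers (SD, n = 5 each). That is a refed-minus-fasted log2 change of 1.53 (SE 0.070) in K556R livers and 1.63 (SE 0.067) in wild-type livers, or 2.89-fold and 3.09-fold. Within batch 1 the changes were 1.54 and 1.65, and within batch 2, which has 1 library in each group other than refed K556R, they were 1.47 and 1.54. Without the 2 libraries that stood apart they were 1.57 and 1.63.

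Gmppb lies on chromosome 9 (GRCm38, 108049242 to 108052801, plus strand). Rnf123, a ubiquitin ligase gene on the opposite strand, overlaps 937 bases or 33.6% of its exons, and the labels name both directional and non-directional libraries, so which of the pair a read in the overlap came from cannot be told apart. Rnf123 itself averaged 4.57 ± 0.647 CPM in refed K556R livers and 4.64 ± 0.352 CPM in refed wild-type livers, against 4.06 ± 0.438 CPM in fasted K556R livers and 4.34 ± 0.188 CPM in fasted wild-type livers (SD, n = 5 each). Its refed-minus-fasted log2 change was 0.16 (SE 0.11) in K556R livers and 0.10 (SE 0.11) in wild-type livers.

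Gmppa encodes the alpha subunit, which restrains the enzyme when GDP-mannose accumulates. It had 21.1, 25.5, 30.0, 28.8 and 29.4 CPM in refed K556R livers, and 29.7, 28.7, 29.9, 30.2 and 29.5 CPM in refed wild-type livers. Fasted libraries held 14.8, 19.2, 16.4, 18.2 and 17.5 CPM in fasted K556R livers, and 17.2, 17.5, 17.5, 15.5 and 17.3 CPM in fasted wild-type livers. The feeding states did not overlap here either, but the refed K556R group was wide, with replicate 1_b1 at 21.1 CPM and the other 4 between 25.5 and 30.0 CPM. The refed-minus-fasted log2 change was 0.61 (SE 0.086) in K556R livers and 0.80 (SE 0.082) in wild-type livers. The ratio of Gmppb to Gmppa CPM, read only for its difference between groups because it is not corrected for gene length, had medians of 0.816 in refed K556R livers and 0.774 in refed wild-type livers, against 0.398 in fasted K556R livers and 0.432 in fasted wild-type livers. Its refed ranges, 0.690 to 0.928 in K556R livers and 0.708 to 0.781 in wild-type livers, lay wholly above the fasted ranges, 0.382 to 0.498 in K556R livers and 0.392 to 0.461 in wild-type livers.

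Pmm2, the phosphomannomutase that turns mannose-6-phosphate into mannose-1-phosphate, had 46.8, 62.6, 58.9, 56.9 and 58.9 CPM in refed K556R livers, and 59.7, 59.0, 58.1, 58.5 and 62.6 CPM in refed wild-type livers. Under fasting the values were 38.2, 45.7, 40.3, 43.0 and 39.0 CPM in fasted K556R livers, and 43.8, 49.4, 40.8, 48.7 and 46.4 CPM in fasted wild-type livers. Refed and fasted libraries did not overlap in either genotype, and the lowest refed value, 46.8 CPM, again belonged to K556R refed 1_b1. Its refed-minus-fasted log2 change was 0.41 (SE 0.069) in K556R livers and 0.38 (SE 0.065) in wild-type livers. Pmm1, its paralog, stood near the bottom of the list per length, at 1.32 CPM per kb of exon in refed K556R livers and 1.06 in refed wild-type livers, against 1.44 in fasted K556R livers and 1.15 in fasted wild-type livers. Exon length here is that of all annotated exons of a gene merged, which can be longer than a single transcript. The libraries of Pmm1 held 2.28, 4.63, 3.14, 4.81 and 4.00 CPM in refed K556R livers, and 2.85, 3.45, 3.42, 2.86 and 2.66 CPM in refed wild-type livers. Fasted libraries held 3.94, 5.62, 4.33, 2.92 and 3.77 CPM in fasted K556R livers, and 3.95, 3.38, 3.35, 2.61 and 3.20 CPM in fasted wild-type livers. These ranges overlapped between the feeding states in both genotypes. Mpi, which links fructose-6-phosphate to mannose-6-phosphate and so opens the route to mannose, had 6.18, 7.002, 7.29, 5.44 and 7.23 CPM in refed K556R livers, and 6.13, 5.80, 7.13, 7.44 and 6.98 CPM in refed wild-type livers. Its fasted values were 5.57, 4.82, 5.42, 5.78 and 4.61 CPM in fasted K556R livers, and 4.70, 4.67, 4.55, 4.44 and 4.37 CPM in fasted wild-type livers. The feeding states did not overlap in wild-type livers, while 1 refed K556R library, at 5.44 CPM, lay inside the fasted K556R range. The refed-minus-fasted log2 change of Mpi was 0.38 (SE 0.10) in K556R livers and 0.55 (SE 0.096) in wild-type livers.

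**Figure D1:**
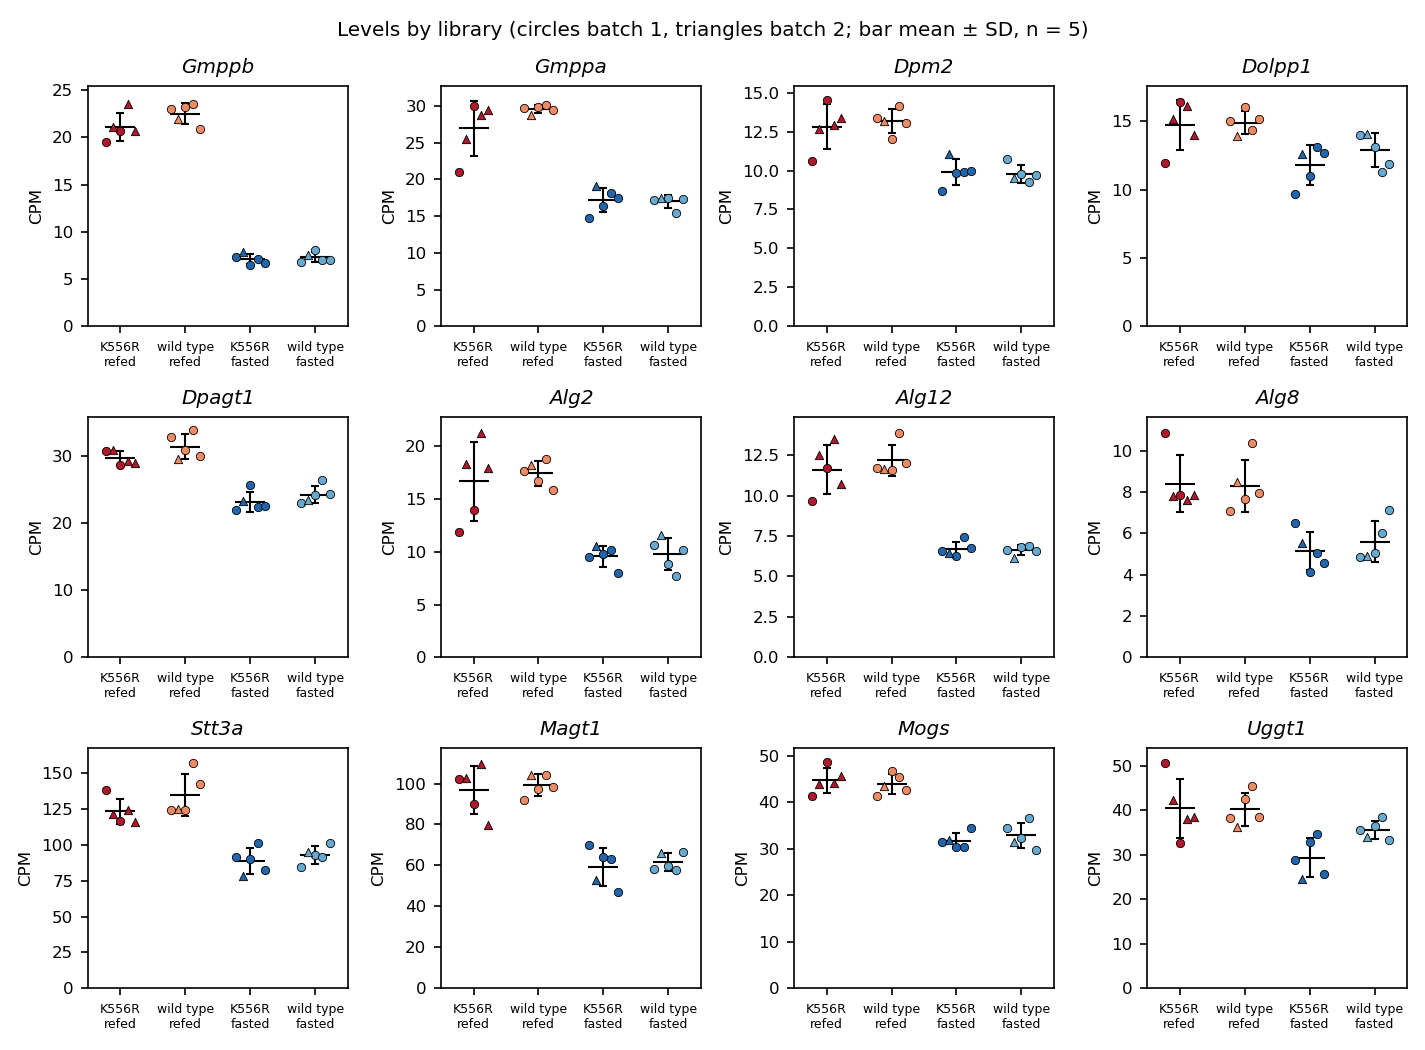
CPM of 12 genes in each of the 20 libraries, 1 panel per gene, with the 4 groups along the horizontal axis, circles for batch 1, triangles for batch 2, and lines for the mean ± SD (n = 5). Gmppb lies between 19.5 and 23.5 CPM in all refed livers and between 6.54 and 8.08 CPM in all fasted livers, whereas the feeding states of Dolpp1 and Uggt1 lie closer together.

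In the supply of dolichol and of its mannose carrier, feeding differences were smaller. Dpm2, a membrane subunit of the synthase that makes dolichol-phosphate-mannose from GDP-mannose, had 10.6, 12.7, 14.5, 13.0 and 13.4 CPM in refed K556R livers, and 13.3, 13.2, 12.0, 14.2 and 13.1 CPM in refed wild-type livers. In fasted livers the values were 8.69, 11.0, 9.87, 9.88 and 9.98 CPM in fasted K556R livers, and 10.8, 9.53, 9.79, 9.24 and 9.70 CPM in fasted wild-type livers. The feeding states were separate in wild-type livers and overlapped in K556R livers, through the 10.6 CPM of K556R refed 1_b1 and the 11.0 CPM of K556R fasted 1_b2. The refed-minus-fasted log2 change was 0.35 (SE 0.085) in K556R livers and 0.42 (SE 0.081) in wild-type livers. Dpm1, the catalytic subunit, was the lowest of the 35 genes per length in every group, at 0.461 CPM per kb in refed K556R livers, 0.411 in refed wild-type livers, 0.465 in fasted K556R livers and 0.514 in fasted wild-type livers. Its merged exons span 7.489 kb, while a transcript of it has 2293 bases, so that rank depends on the length used. Its log2 change was -0.09 (SE 0.18) in K556R livers and -0.33 (SE 0.17) in wild-type livers, and 12.0% of its exon bases are shared with Gm20716 on the same strand. Dpm3, which anchors Dpm1, had log2 changes of 0.09 (SE 0.31) and 0.14 (SE 0.30), with the widest error of the list.

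Dolpp1, the phosphatase that recycles dolichol pyrophosphate after the chain has been transferred, had 11.9, 15.2, 16.4, 16.1 and 13.99 CPM in refed K556R livers, and 15.0, 13.9, 16.1, 14.3 and 15.2 CPM in refed wild-type livers. Fasted libraries gave 9.68, 12.6, 11.0, 13.1 and 12.7 CPM in fasted K556R livers, and 14, 14.1, 13.1, 11.3 and 11.9 CPM in fasted wild-type livers. Refed and fasted values overlapped in both genotypes, and the log2 change was 0.29 (SE 0.10) in K556R livers and 0.21 (SE 0.095) in wild-type livers. Dolk, the kinase that makes dolichol phosphate, had 11.0, 12.5, 12.7, 12.3 and 13.1 CPM in refed K556R livers, and 12.2, 12.8, 13.2, 13.1 and 14.3 CPM in refed wild-type livers. Its fasted libraries had 9.65, 11.4, 10.3, 11.7 and 9.74 CPM in fasted K556R livers, and 12.5, 11.6, 9.87, 12.0 and 10.8 CPM in fasted wild-type livers. These ranges also overlapped, with log2 changes of 0.20 (SE 0.080) and 0.21 (SE 0.076) in K556R and wild-type livers. Srd5a3, a polyprenol reductase of dolichol synthesis, was lower in the refed state, with means of 9.01 CPM in refed K556R livers and 8.82 CPM in refed wild-type livers, against 11.3 CPM in fasted K556R livers and 10.3 CPM in fasted wild-type livers. Its log2 change was -0.26 (SE 0.097) in K556R livers and -0.23 (SE 0.093) in wild-type livers.

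On the cytosolic face, the genes went in both directions. Dpagt1, which starts the chain by placing N-acetylglucosamine phosphate on dolichol phosphate, had 30.8, 30.9, 28.7, 29.3 and 29.0 CPM in refed K556R livers, and 32.9, 29.5, 30.8, 33.8 and 30.0 CPM in refed wild-type livers. Its fasted livers had 21.95, 23.3, 25.6, 22.4 and 22.5 CPM in fasted K556R livers, and 23.0, 23.5, 24.2, 26.4 and 24.3 CPM in fasted wild-type livers. The feeding states did not overlap in either genotype, and the log2 changes, 0.38 (SE 0.060) in K556R livers and 0.37 (SE 0.057) in wild-type livers, were nearly equal. Alg2, which adds the second and the third mannose, had 11.9, 18.4, 13.99, 21.2 and 18.0 CPM in refed K556R livers, and 17.7, 18.2, 16.7, 18.8 and 15.9 CPM in refed wild-type livers. In the fasted state it had 9.48, 10.6, 9.78, 10.1 and 8.00 CPM in fasted K556R livers, and 10.7, 11.6, 8.89, 7.71 and 10.2 CPM in fasted wild-type livers. The states were again separate, but the refed K556R libraries of batch 1, at 11.9 and 13.99 CPM, lay below those of batch 2, at 18.0 to 21.2 CPM. The log2 change of Alg2 was 0.65 (SE 0.11) in K556R livers and 0.84 (SE 0.10) in wild-type livers, and within K556R livers it was 0.47 in batch 1 and 0.87 in batch 2.

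The other genes of this face lay the opposite way or showed little difference. Alg1, which adds the first mannose, averaged 16.4 CPM in refed K556R livers and 16.3 CPM in refed wild-type livers, against 19.8 CPM in fasted K556R livers and 19.3 CPM in fasted wild-type livers. Alg11, which adds the last mannoses on this face, averaged 15.8 CPM and 15.3 CPM in refed K556R and wild-type livers, against 18.8 CPM and 20.2 CPM in fasted K556R and wild-type livers. Alg14, which holds the transferase of the second N-acetylglucosamine at the membrane, averaged 11.0 CPM and 10.2 CPM in refed K556R and wild-type livers, against 12.6 CPM and 12.0 CPM in fasted K556R and wild-type livers. The refed-minus-fasted log2 changes of these genes lay between -0.40 and -0.22, and in wild-type livers the refed and fasted values of Alg11 and Alg14 did not overlap. Alg13, the catalytic partner of Alg14, had log2 changes of -0.04 (SE 0.099) in K556R livers and -0.19 (SE 0.095) in wild-type livers. The exons of Alg1 share 17.6% of their bases with Eef2kmt, and Alg13 matches Glt28d2 over 201 bases at 95.03% identity, so part of their counts is uncertain. The same limit holds for genes of other steps. Alg9 shares 12.9% of its exon bases with 1110032A03Rik, and Alg3 shares 8.5% with Eef1akmt4. At 95% identity or more, Rpn2 matches Snrnp70 over 191 bases and Magt1 matches Snrnp200 over 164. Dpagt1 matches Ilf2 over 160 bases and Uggt1 matches Mfsd4a over 144, among other genes.

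Among the lumenal transferases, Alg12, which adds the mannose of a late branch, had 9.65, 12.5, 11.7, 13.5 and 10.7 CPM in refed K556R livers, and 11.7, 11.7, 11.6, 13.9 and 12.0 CPM in refed wild-type livers. Fasted livers held 6.56, 6.45, 6.29, 7.43 and 6.76 CPM in fasted K556R livers, and 6.65, 6.11, 6.85, 6.90 and 6.56 CPM in fasted wild-type livers. No refed library overlapped a fasted one in either genotype, and the log2 change was 0.79 (SE 0.092) in K556R livers and 0.88 (SE 0.087) in wild-type livers, next to that of Gmppb. Alg8, which adds the second glucose, had 10.8, 7.79, 7.84, 7.62 and 7.87 CPM in refed K556R livers, and 7.08, 8.47, 7.65, 10.4 and 7.95 CPM in refed wild-type livers. Its fasted values were 6.51, 5.51, 4.14, 5.03 and 4.58 CPM in fasted K556R livers, and 4.84, 4.89, 5.04, 6.03 and 7.15 CPM in fasted wild-type livers. These states were separate in K556R livers, while in wild-type livers the refed minimum of 7.08 CPM lay just under the fasted maximum of 7.15 CPM. The log2 change of Alg8 was 0.74 (SE 0.15) in K556R livers and 0.58 (SE 0.14) in wild-type livers. In K556R livers without the 2 libraries that stood apart it was 0.68, and the highest refed value, 10.8 CPM, was that of K556R refed 1_b1.

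Alg3, which adds the first lumenal mannose, averaged 9.98 CPM in refed K556R livers and 9.83 CPM in refed wild-type livers, against 6.81 CPM in fasted K556R livers and 6.88 CPM in fasted wild-type livers, with log2 changes of 0.55 (SE 0.10) and 0.52 (SE 0.097). Alg9, the mannosyltransferase that acts between Alg3 and Alg12 and again after Alg12, had log2 changes of 0.16 in K556R livers and 0.15 in wild-type livers. The glucosyltransferase genes Alg6 and Alg10b lay between -0.11 and 0.08. Alg5, which makes dolichol-phosphate-glucose, had 32.4, 36.2, 34.1, 32.2 and 33.7 CPM in refed K556R livers, and 37.3, 35.4, 37.9, 35.6 and 35.3 CPM in refed wild-type livers. Its fasted range was wide, with 33.8, 39.2, 40.8, 34.1 and 31.2 CPM in fasted K556R livers, and 32.4, 32.3, 35.6, 32.2 and 37.9 CPM in fasted wild-type livers. Refed and fasted values overlapped in both genotypes, and the log2 change of Alg5 was -0.09 in K556R livers and 0.09 in wild-type livers.

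The promoter window of Alg12 is shown because Alg12 was the gene with the widest feeding difference after Gmppb and because, of the 30 genes whose windows were found, it alone held the letters of the endoplasmic reticulum stress element (ERSE), a sequence that ATF6 and XBP1 are known to bind with the factor NF-Y. The window runs 250 bases before to 50 after the RefSeq start (chr15:88819269-88819568, minus strand, GRCm38.p6), and the capitals mark the 19 letters of the match, CCAAT and CCACG with any 9 letters between them.
Alg12: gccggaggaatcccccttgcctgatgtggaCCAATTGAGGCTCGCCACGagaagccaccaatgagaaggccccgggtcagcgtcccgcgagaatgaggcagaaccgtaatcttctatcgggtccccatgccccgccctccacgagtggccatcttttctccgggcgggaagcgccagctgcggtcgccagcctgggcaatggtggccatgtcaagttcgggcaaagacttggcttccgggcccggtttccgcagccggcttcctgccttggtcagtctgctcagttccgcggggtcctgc
The match begins 220 bases before the start of Alg12. The same bases, on the other strand, lie in the window of Creld2, the neighbouring gene on the plus strand (window chr15:88819396-88819695), which encodes an endoplasmic reticulum protein that stress induces. Creld2 averaged 48.6 ± 10.8 CPM in refed K556R livers and 53.4 ± 12.9 CPM in refed wild-type livers, against 23.3 ± 1.39 CPM in fasted K556R livers and 27.3 ± 8.68 CPM in fasted wild-type livers (SD, n = 5 each). Its refed-minus-fasted log2 change was 1.18 (SE 0.20) in K556R livers and 0.97 (SE 0.19) in wild-type livers.

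RefSeq windows of 300 bases were found for 30 of the 35 genes, and those of Gmppb, Dpagt1, Alg2, Alg11 and Tusc3 were not analysed here. On both strands, the ERSE letters were in 1 of these 30 genes, against 37 of 27025 genes or 0.137% of all. Of the neighbouring lists described below, the unfolded protein response list held them in 3 of 11 genes with a window, Creld2 among them. The lectin folding list held them in 2 of 12, and the other lists held none. ERSE-II (ATTGG and CCACG with any 1 letter between them) and the core letters of the unfolded protein response element (TGACGTGG) were in 0 of the 30, against 0.0444% and 0.714% of all genes. The half-site CCACG, which is also the end of the ERSE, was in 15 of the 30, against 35.5% of all genes. A match of letters is a description and not evidence of binding.

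In the oligosaccharyltransferase, the 2 catalytic subunits differed in their values with feeding. Stt3a, the subunit of the complex that works on proteins as they enter the endoplasmic reticulum, had 138, 122, 117, 124 and 116 CPM in refed K556R livers, and 124, 125, 124, 157 and 142 CPM in refed wild-type livers. Fasted livers had 91.7, 78.2, 90.4, 101 and 82.7 CPM in fasted K556R livers, and 84.3, 95.1, 93.2, 91.6 and 101 CPM in fasted wild-type livers. The states did not overlap, and the log2 change was 0.51 (SE 0.081) in K556R livers and 0.53 (SE 0.077) in wild-type livers. Stt3b, the subunit of the complex that can act later on sites left free, had 107, 108, 96.2, 106 and 94.2 CPM in refed K556R livers, and 96.4, 97.8, 99.5, 109 and 105 CPM in refed wild-type livers. The fasted values were 108, 93.5, 106, 93.4 and 94.4 CPM in fasted K556R livers, and 88.8, 84.0, 91.4, 89.3 and 103 CPM in fasted wild-type livers. Here refed and fasted values overlapped in both genotypes, with log2 changes of 0.08 (SE 0.067) and 0.15 (SE 0.063). The Stt3a to Stt3b ratio of CPM ranged over 1.12 to 1.29 in refed K556R livers and 1.25 to 1.44 in refed wild-type livers, against 0.837 to 1.08 in fasted K556R livers and 0.949 to 1.13 in fasted wild-type livers. Per kb of merged exons Stt3b was the higher of the pair in every group, but in CPM Stt3a was the higher in both refed groups. The refed order per kb therefore rests on the merged lengths, 8.948 kb for Stt3a and 4.221 kb for Stt3b. Stt3b had 24.2 CPM per kb in refed K556R livers and 24.1 in refed wild-type livers, where Stt3a had 13.8 and 15.1. In fasted livers Stt3b had 23.4 CPM per kb in the K556R group and 21.6 in the wild-type group, where Stt3a had 9.93 and 10.4.

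The windows of this pair are shown with the half-site in capitals (RefSeq, GRCm38.p6, both on the minus strand of chromosome 9, chr9:36767573-36767872 and chr9:115310419-115310718). The half-site was in 35.5% of all genes, and its bearing on the feeding values was not tested.
Stt3a: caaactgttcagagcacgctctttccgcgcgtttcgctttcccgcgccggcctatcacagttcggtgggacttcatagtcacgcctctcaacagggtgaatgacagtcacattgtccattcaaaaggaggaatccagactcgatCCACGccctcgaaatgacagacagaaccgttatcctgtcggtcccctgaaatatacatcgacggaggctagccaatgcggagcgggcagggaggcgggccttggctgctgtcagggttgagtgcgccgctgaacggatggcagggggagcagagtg
Stt3b: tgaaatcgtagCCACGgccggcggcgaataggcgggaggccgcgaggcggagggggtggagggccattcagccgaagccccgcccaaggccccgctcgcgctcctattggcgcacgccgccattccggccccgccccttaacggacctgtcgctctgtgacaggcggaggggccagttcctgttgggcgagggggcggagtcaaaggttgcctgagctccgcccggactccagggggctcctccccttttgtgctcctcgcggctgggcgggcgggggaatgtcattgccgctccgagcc
The half-site begins 106 bases before the start of Stt3a and 239 bases before that of Stt3b.

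Magt1, an oxidoreductase subunit of the Stt3b complex, had 102, 103, 89.9, 110 and 79.8 CPM in refed K556R livers, and 91.9, 104, 97.5, 104 and 98.4 CPM in refed wild-type livers. Fasted livers held 70.1, 53.1, 64.1, 63.0 and 47.0 CPM in fasted K556R livers, and 58.3, 66.2, 59.7, 57.9 and 66.8 CPM in fasted wild-type livers. The states did not overlap in either genotype, and the log2 change of Magt1 was 0.70 (SE 0.10) in K556R livers and 0.68 (SE 0.098) in wild-type livers. Tusc3, which takes the same place in the complex, had log2 changes of -0.06 (SE 0.15) and 0.03 (SE 0.14). The median Magt1 to Tusc3 ratio of CPM was 12.5 in refed K556R livers and 14.3 in refed wild-type livers, against 8.30 in fasted K556R livers and 9.65 in fasted wild-type livers.

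The subunits common to both complexes also differed among themselves. Rpn1 averaged 156 ± 4.64 CPM in refed K556R livers and 156 ± 11.5 CPM in refed wild-type livers, against 115 ± 8.14 CPM in fasted K556R livers and 111 ± 13.0 CPM in fasted wild-type livers (SD, n = 5 each). Ddost averaged 85.9 ± 4.83 CPM and 87.5 ± 7.52 CPM in refed K556R and wild-type livers, against 62.6 ± 5.97 CPM and 60.9 ± 5.09 CPM in fasted K556R and wild-type livers (SD, n = 5 each). Their refed and fasted values did not overlap, with log2 changes of 0.48 for both in K556R livers, and of 0.50 and 0.52 in wild-type livers. Rpn2 lay at 159 CPM in refed K556R livers and 160 CPM in refed wild-type livers, against 156 CPM in fasted K556R livers and 161 CPM in fasted wild-type livers, a log2 change of 0.05 (SE 0.060) and -0.00 (SE 0.056). Dad1 lay between, at 0.13 (SE 0.065) in K556R livers and 0.23 (SE 0.062) in wild-type livers. Per length Ddost ranked first of the 35 genes in both refed groups, at 40.5 CPM per kb in K556R livers and 41.3 in wild-type livers, and Rpn2 ranked first in both fasted groups, at 35.2 and 36.3 CPM per kb. These ranks depend on the length used, since the merged exons of Rpn2 span 4.43 kb and a transcript of it has 2756 bases.

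**Figure D2:**
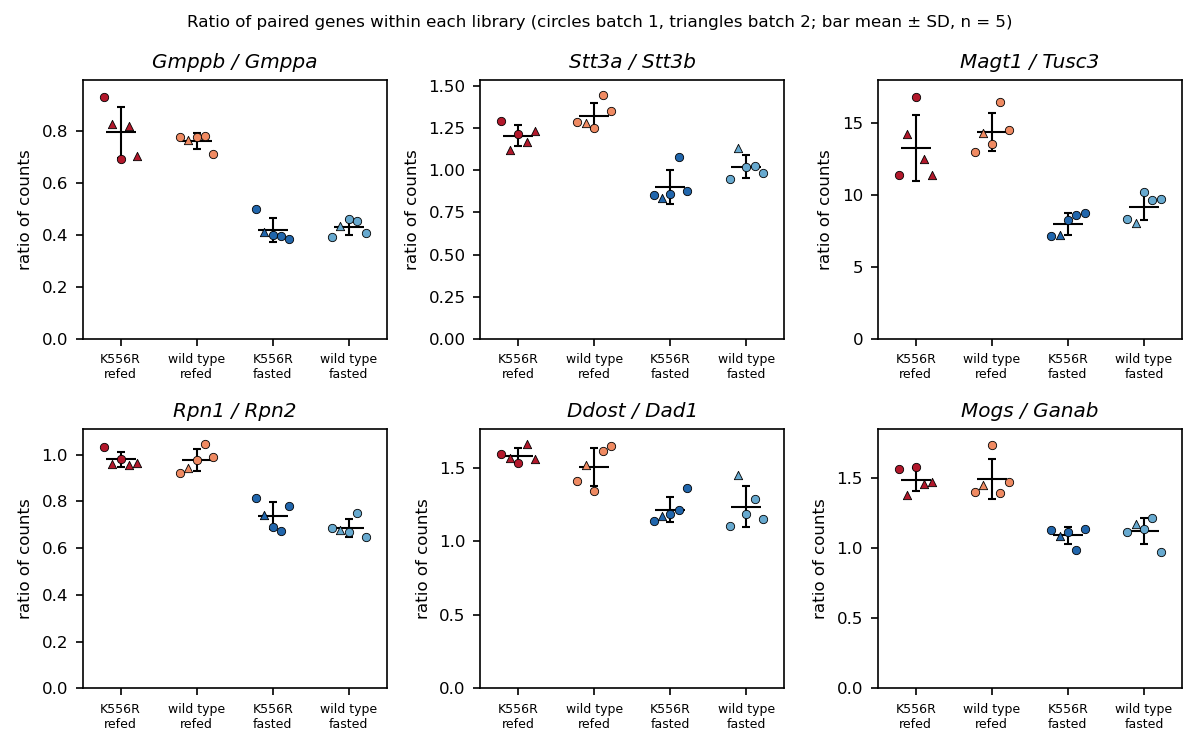
Ratio of CPM within 6 pairs of genes that share a step, by group, with circles for batch 1, triangles for batch 2 and bars for the mean ± SD (n = 5). The Gmppb to Gmppa ratio lies at 0.690 or above in all refed livers and at 0.498 or below in all fasted livers, and the Stt3a to Stt3b ratio is at 1.12 or above in all refed livers.

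At the trimming step, Mogs, the glucosidase that removes the outermost glucose, had 41.3, 43.9, 48.7, 44.1 and 45.6 CPM in refed K556R livers, and 41.4, 43.5, 46.7, 45.5 and 42.7 CPM in refed wild-type livers. Its fasted livers held 31.4, 31.8, 30.5, 30.4 and 34.4 CPM in fasted K556R livers, and 34.6, 31.6, 32.3, 36.6 and 29.7 CPM in fasted wild-type livers. No refed value overlapped a fasted one in either genotype, and the log2 change was 0.51 (SE 0.065) in K556R livers and 0.42 (SE 0.062) in wild-type livers. Ganab, the catalytic subunit of the glucosidase that removes the inner glucoses, differed little, with means of 30.0 CPM in refed K556R livers and 29.6 CPM in refed wild-type livers, against 29.1 CPM in fasted K556R livers and 29.3 CPM in fasted wild-type livers.

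Uggt1, the glucosyltransferase that puts a glucose back on misfolded glycoproteins, had 50.6, 42.4, 32.7, 38.1 and 38.4 CPM in refed K556R livers, and 38.2, 36.3, 42.6, 45.4 and 38.6 CPM in refed wild-type livers. The fasted values were 28.9, 24.6, 32.8, 34.7 and 25.7 CPM in fasted K556R livers, and 35.7, 33.98, 36.5, 38.4 and 33.3 CPM in fasted wild-type livers. Refed and fasted values overlapped in both genotypes, and 4 of the 5 fasted K556R libraries lay below the lowest fasted wild-type library. The refed-minus-fasted log2 change was 0.53 (SE 0.11) in K556R livers and 0.18 (SE 0.099) in wild-type livers, the widest gap between the genotypes in the list, which is tested with the interaction.

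**Figure D3:**
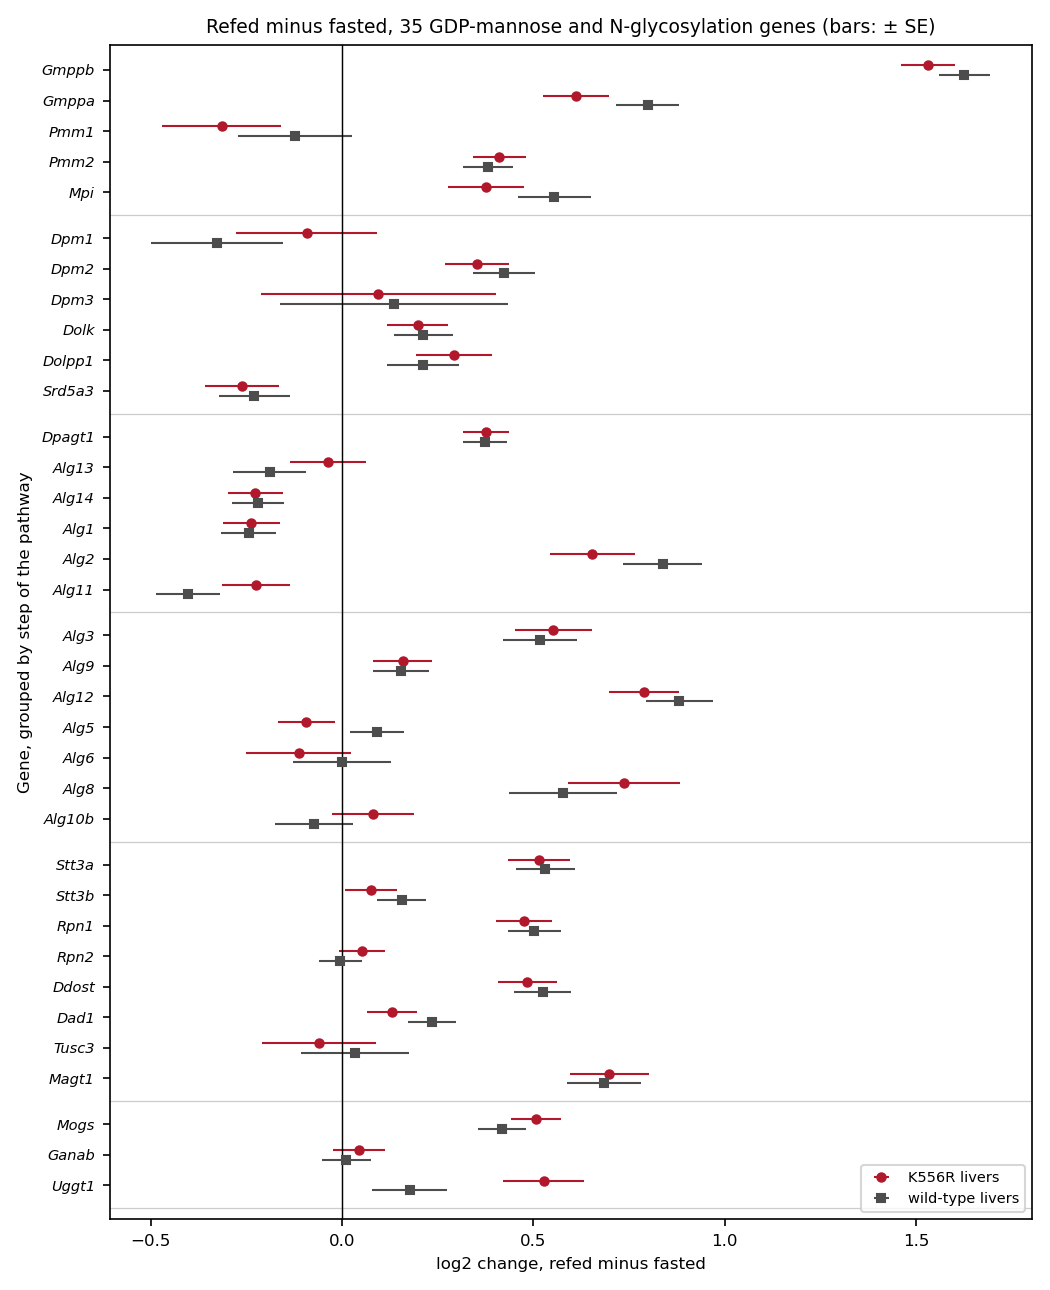
Refed-minus-fasted log2 change of the 35 genes, grouped by role, with red circles for K556R livers, grey squares for wild-type livers and bars of ± 1 SE from the fit over 20 libraries. Gmppb lies farthest right, at 1.53 and 1.63, and Alg1, Alg11, Alg14 and Srd5a3 lie left of 0 in both genotypes.

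Counted over the list, 17 of the 35 genes were higher and 4 lower in refed than in fasted livers in each genotype at an adjusted p below 0.05 (edgeR's quasi-likelihood test, Benjamini and Hochberg over 13894 genes). Of all genes, 39.9% passed in K556R livers (19.6% higher, 20.3% lower) and 45.1% in wild-type livers (20.9% higher, 24.2% lower), and because the list was picked on refeeding nothing is read from the difference. In both genotypes 15 genes were called higher and 4 lower, Dolpp1 and Uggt1 were called in K556R livers alone, Dad1 and Dolk in wild-type livers alone, and 12 in neither. The sign was the same in both genotypes for 31 of the 35 genes. That share was not counted over all genes, so nothing is read from it. The median log2 change was 0.20 in K556R livers and 0.21 in wild-type livers, against 0.01 and -0.01 over all genes. Without K556R refed 1_b1 the K556R median was 0.34, and without K556R fasted 4_b1 it was 0.32. Groups did not overlap for 13 genes higher and 0 lower in K556R livers, against 12.8% and 14.1% of all genes, and for 14 higher and 2 lower in wild-type livers, against 15.9% and 18.7%. Without the 2 libraries that stood apart, 22 genes were called in K556R livers and 23 in wild-type livers, with all 21 earlier calls among them in each. The K556R changes were then 0.67 for Gmppa, 0.76 for Alg2, 0.87 for Alg12 and 0.41 for Uggt1. The share of all genes called in that fit is not given here, so nothing is read from its counts.

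By role, GDP-mannose synthesis had median log2 changes of 0.41 in K556R livers and 0.55 in wild-type livers, with 4 of 5 genes called higher in each. The oligosaccharyltransferase had 0.30 and 0.37, with 4 and 5 of 8 called higher. The dolichol genes had 0.15 and 0.17, with 2 of 6 called higher and 1 lower, and the lumenal transferases 0.16 and 0.15, with 3 of 7 called higher. The cytosolic face had -0.13 and -0.21, with 2 of 6 called higher and 3 lower. The trimming genes had 0.51 and 0.18, with 2 of 3 called higher in K556R livers and 1 of 3 in wild-type livers. The 35 genes together took 1259 to 1303 CPM in refed K556R livers and 1268 to 1395 CPM in refed wild-type livers, against 1010.3 to 1082 CPM in fasted K556R livers and 1017 to 1102 CPM in fasted wild-type livers. Signs in batch 1 alone and in batch 2 alone were the same for 28 of 35 genes in K556R livers and 29 of 35 in wild-type livers.

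In bulk liver, fewer cells of a type and less RNA per cell cannot be told apart. The 6 hepatocyte markers summed to 94906 to 109731 CPM in refed K556R livers and 99996 to 106455 CPM in refed wild-type livers, against 123074 to 131234 CPM in fasted K556R livers and 98365 to 139699 CPM in fasted wild-type livers. The 5 sinusoidal endothelial markers summed to 74.8 to 95.6 CPM and 75.7 to 91.6 CPM in refed K556R and wild-type livers, against 94.4 to 107 CPM and 65.6 to 112 CPM in fasted K556R and wild-type livers. None of these markers was at 0 in all libraries, and their part in the feeding differences was not tested.

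The design also asks whether K556R Prox1 changes these genes. None of the 35 passed in fasted livers, in refed livers or averaged over both states, against 0%, 0% and 0.0288% of all genes, the last being 0.0072% higher and 0.0216% lower (edgeR's quasi-likelihood test, Benjamini and Hochberg over 13894 genes). The 0.0288% are 4 genes, and Prox1 is one of them, with a log2 change of -0.72 (SE 0.10, adjusted p = 0.00564 by the same test) averaged over the feeding states. In the states taken alone the adjusted p of Prox1 was 0.559 in refed livers and 0.0666 in fasted livers in edgeR's test. DESeq2 and limma also called none of the 35. At an unadjusted p below 0.05 edgeR had 2 genes in fasted livers, 0 in refed livers and 1 in the average, where of all 13894 genes 1136, 693 and 1288 did so. DESeq2 had 2, 2 and 1 of the 35, and limma had 1, 0 and 2. For these tools that count was not made over all genes, so nothing is read from it. Log2 differences, K556R minus wild type, spanned -0.28 to 0.30 in fasted livers and -0.21 to 0.26 in refed livers. No gene had K556R and wild-type libraries that did not overlap, against 0.367% of all genes higher and 0.547% lower in fasted livers, and 0.194% and 0.425% in refed livers. Batch 1 alone and batch 2 alone gave the same sign for 22 of 35 genes in fasted livers and 17 of 35 in refed livers.

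In fasted livers, the gene with the lowest p was Uggt1, with a log2 difference of -0.28 (SE 0.099, 95% interval -0.49 to -0.07). Its unadjusted p was 0.0104 and its adjusted p 0.433 in edgeR's test. Within batch 1 the difference was -0.24 and within batch 2, with 1 fasted library per genotype, it was -0.47. Without the 2 libraries that stood apart it was -0.27. Pmm2 followed at -0.15 (SE 0.065, 95% interval -0.29 to -0.02, adjusted p = 0.544 in edgeR's test), and Mpi lay the other way at 0.20 (SE 0.097, 95% interval -0.00 to 0.40, adjusted p = 0.613). Mpi was 0.24 within batch 1 and 0.04 within batch 2.

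In refed livers, 2 GDP-mannose genes and Alg2 had the lowest p. The difference was -0.17 (SE 0.085) for Gmppa, -0.21 (SE 0.11) for Alg2 and -0.13 (SE 0.068) for Gmppb, with an adjusted p of 0.965 for each in edgeR's test. The 95% intervals ran from -0.35 to 0.01, from -0.44 to 0.01 and from -0.27 to 0.01. Without K556R refed 1_b1 and K556R fasted 1_b1 the differences were -0.06 for Gmppa, -0.11 for Alg2 and -0.11 for Gmppb. Within batch 1 they were -0.23, -0.42 and -0.17, and within batch 2 they were -0.05, 0.07 and -0.02. K556R refed 1_b1 held the lowest value of its group for 17 of the 35 genes and the highest for 8, and wild type refed 3_b1 held the highest value of its group for 17 and the lowest for 5.

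Averaged over the feeding states, Pmm2 had the lowest p, with a log2 difference of -0.14 (SE 0.048, 95% interval -0.24 to -0.04, adjusted p = 0.36 in edgeR's test). It was -0.17 within batch 1, -0.06 within batch 2 and -0.09 without the 2 libraries that stood apart. Dolk stood at -0.11 (SE 0.056, adjusted p = 0.558) and Pmm1 at 0.20 (SE 0.11, adjusted p = 0.60). Dolk was -0.14 within batch 1 and -0.03 within batch 2, and Pmm1 was 0.03 within batch 1 and 0.55 within batch 2. None of these differences passed the test.

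**Figure D4:**
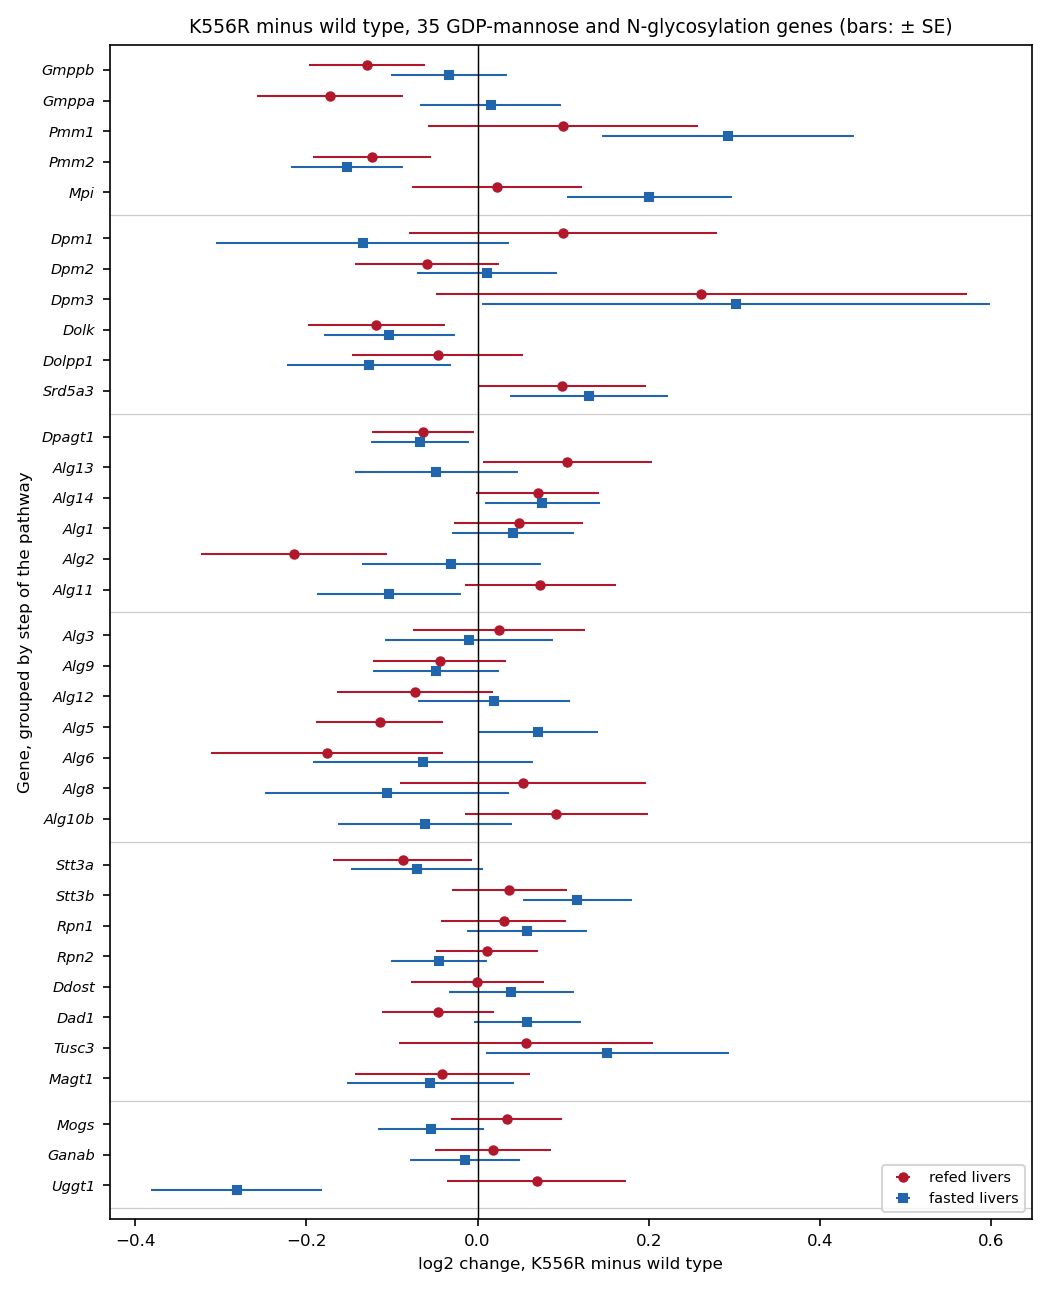
K556R-minus-wild-type log2 difference of the 35 genes, grouped by role, with red circles for refed livers, blue squares for fasted livers and bars of ± 1 SE from the fit over 20 libraries. All points lie between -0.28 and 0.30, and Uggt1 lies lowest of the fasted points.

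The interaction, which asks whether the refeeding change differs between K556R and wild-type livers, was passed by 0 of the 35 genes and by 0% of all genes (edgeR's quasi-likelihood test, Benjamini and Hochberg over 13894 genes), and DESeq2 and limma also called 0 of the 35. At an unadjusted p below 0.05 edgeR had 553 of all 13894 genes, and DESeq2 and limma were not counted over all genes. Each of the 3 tools had 1 of the 35 at that level. With edgeR that gene was Uggt1, whose refeeding change was larger in K556R livers by 0.35 on the log2 scale (SE 0.14, 95% interval 0.05 to 0.65, adjusted p = 1.00). The difference was 0.25 within batch 1, 0.59 within batch 2 and 0.24 without the 2 libraries that stood apart. Alg5 stood at -0.19 (SE 0.10) and Gmppa at -0.19 (SE 0.12). For Gmppb the interaction was -0.10 (SE 0.096, 95% interval -0.30 to 0.10), so a difference in its refeeding change of up to 0.30 lies inside the interval. Batch 1 alone and batch 2 alone gave the same sign for 20 of 35 genes.

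Apart from group and batch, the genes varied little together. After group and batch means were removed, the median Pearson r of log2 CPM over the 595 pairs of the 35 genes was 0.057, against 0.012 for their pairs with other genes (all pairs come from the same 20 libraries). Among the 28 pairs of oligosaccharyltransferase genes the median was 0.108, and 0.243 without the 2 libraries that stood apart. Single pairs, picked from the ends of the 595, were strong in both directions. Rpn1 and Ddost had 0.720, and 0.799 without those libraries. Pairs from different steps lay higher with all libraries, such as Dpm3 with Mogs at 0.750 and Alg6 with Uggt1 at 0.749. Without those libraries these pairs had 0.716 and 0.701. Among the 10 pairs of GDP-mannose genes the median was 0.215 with these libraries and -0.041 without them. Gmppa followed Dpm2 at 0.827, and at 0.566 without them. The lowest pairs were Srd5a3 with Alg1 at -0.813, and -0.636 without them, and Dpm3 with Srd5a3 at -0.766, and -0.618 without them. These values are descriptions without a test.

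Genes next to these pathways were read from lists chosen with earlier results of these data known, again as a description of refeeding, with nothing read from their counts. Of all genes, 19.6% were called higher and 20.3% lower with refeeding in K556R livers, and 20.9% higher and 24.2% lower in wild-type livers. Of the other oligosaccharyltransferase subunits, 3 of 3 tested were called higher in both genotypes. Ostc, a subunit of the Stt3a complex, had log2 changes of 1.10 (SE 0.10) in K556R livers and 1.17 (SE 0.097) in wild-type livers, Krtcap2 had 0.47 and 0.50, and Ost4 had 0.33 and 0.30. Of 3 other dolichol and flipping genes 1 was called higher in both, which was Dhdds, a subunit of the prenyltransferase that makes the dolichol chain, at 0.57 and 0.43. Of 5 genes on the hexosamine route to UDP-N-acetylglucosamine, 3 were called higher in K556R livers and 2 in wild-type livers. Gfpt1, which commits fructose-6-phosphate to that route, had 0.54 (SE 0.11) and 0.49 (SE 0.11).

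The routes to other sugar donors did not lie the same way. In the CMP-sialic acid list, 1 of 5 genes was called higher and 2 lower in each genotype. Gne, which starts sialic acid synthesis, was at -1.26 (SE 0.13) in K556R livers and -1.22 (SE 0.12) in wild-type livers, while Nans, which condenses the sugar, was at 0.57 and 0.54. In the GDP-fucose list, which draws on GDP-mannose, 1 of 5 genes was called higher in K556R livers and 0 in wild-type livers. Gmds, the dehydratase that takes GDP-mannose into GDP-fucose, had 0.68 (SE 0.24) in K556R livers and 0.53 (SE 0.23) in wild-type livers. Among 7 genes that use dolichol-phosphate-mannose outside N-glycosylation, 3 were called higher and 2 lower in each genotype. Pomt1, a protein O-mannosyltransferase, had 0.63 and 0.71, Pigb, a mannosyltransferase of the GPI anchor, had 0.70 and 0.57, and Pigm, another of these, had -0.49 and -0.47. Dpy19l3, a C-mannosyltransferase, had 0.83 (SE 0.21) in K556R livers, where it was called higher, and -0.04 (SE 0.19) in wild-type livers, where it was not. It averaged 12.1 ± 2.16 CPM in refed K556R livers and 11.1 ± 2.92 CPM in refed wild-type livers, against 6.53 ± 1.15 CPM in fasted K556R livers and 11.5 ± 3.33 CPM in fasted wild-type livers (SD, n = 5 each). Its interaction was 0.87 on the log2 scale (SE 0.28) with an adjusted p of 1.00, and its K556R-minus-wild-type difference in fasted livers was -0.81 (SE 0.20) with an adjusted p of 0.238, both in edgeR's test.

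Downstream, the lectin folding list had 4 of 11 genes called higher and 2 lower in K556R livers, and 3 higher and 3 lower in wild-type livers. Calr, the lectin chaperone calreticulin, was at 0.97 in both genotypes, and Pdia3, the disulfide isomerase that works with it, was at 0.78 and 0.69. Edem3, a mannosidase of disposal, was at -0.31 and -0.36, while Edem1 of the same list was called higher in K556R livers, at 0.35 (SE 0.062). Of 16 Golgi processing genes, 1 was called higher in K556R livers and 3 in wild-type livers, and 3 were called lower in each. Man2a1, Man1a2 and Man1a, which trim mannose in the Golgi, were at -0.75, -0.59 and -0.42 in K556R livers and at -0.89, -0.63 and -0.44 in wild-type livers. They are the 3 genes of this list called lower in K556R livers. St3gal6, also among the 4 with the largest change, and the genes called higher are not shown. Man1c1 and Man2a2, other mannose-trimming genes of this list, were not called in K556R livers, at -0.03 (SE 0.15) and -0.05 (SE 0.057). Of 14 regulators and chaperones of the unfolded protein response, 11 were called higher and 1 lower in K556R livers, and 9 higher and 1 lower in wild-type livers. Sdf2l1 had 2.31 (SE 0.31) and 2.05 (SE 0.29), Manf had 1.74 and 1.92, and Hyou1 had 1.40 and 1.44. The gene called lower in K556R livers was Atf6, at -0.50 (SE 0.073). Dnajb9, at -0.16, and Ddit3, at 0.05, were not called there. None of these listed genes passed the tests of genotype or of the interaction.

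**Figure D5:**
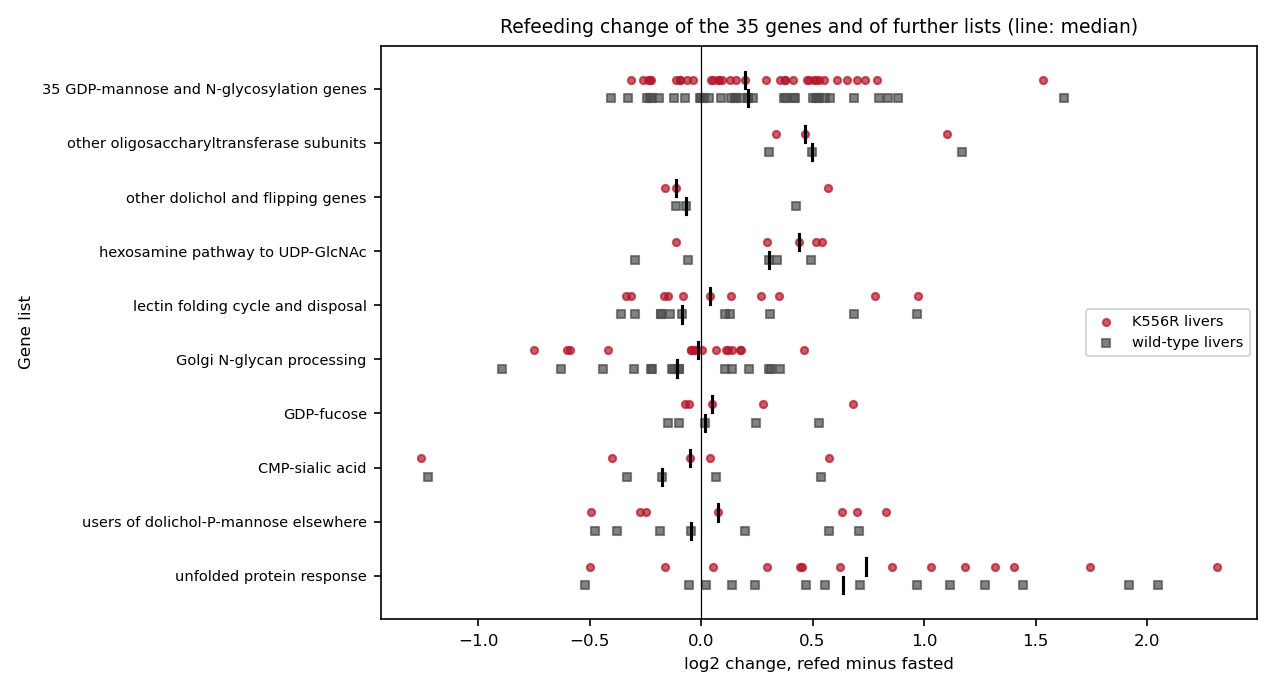
Refed-minus-fasted log2 change of each gene (points) in the list of 35 and in 9 lists of neighbouring genes, with red circles for K556R livers, grey squares for wild-type livers and a black line at each median. The unfolded protein response list has medians of 0.74 and 0.64 and the list of 35 has 0.20 and 0.21, while Golgi processing lies at -0.01 and -0.11.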

How the data were processed

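The authors deposited raw read counts per gene for the 20 libraries, with 29915 gene symbols, and all columns matched a library. The submitters' processing notes name mm10 as the build and, among aligners, counters and test packages, edgeR, DESeq2, HTSeq, STAR, TopHat and STAR-Fusion. Which of these counted the reads, on what annotation and with which strand setting, is not given in the sources used here.

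Counts entered the quasi-likelihood F test of edgeR 4.0.16 under R 4.3.3, with robust dispersions, TMM scaling and the filter of filterByExpr at a minimum count of 10 and a total of 15. A single fit of group and batch took all 20 libraries, with Benjamini and Hochberg adjustment across 13894 genes and a threshold of 0.05. The steps were tested on simulated data. Alternatives used DESeq2 1.42.0 and limma 3.58.1, among others. The 40 pairs of libraries of 1 group all differed by more than sampling noise (chi-square per degree of freedom 11.7 to 136). Positions are from GENCODE M21 on GRCm38 and promoter windows from RefSeq on GRCm38.p6.

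The 35 genes and the further lists were chosen with earlier results of these data known. Library values are given for Gmppb, for the 2 genes of each role with the largest refeeding change and for the 3 with the lowest p in each test of genotype or interaction. Stt3b was added to these after its values were seen. Of each further list, up to 4 genes with the largest refeeding change could be named. Creld2 was named for its promoter window, and Atf6, Dnajb9 and Ddit3 because they were not called higher in K556R livers. Man1c1 and Man2a2 were named as mannose-trimming genes not called lower there.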

Additional observations from a re-analysis of the deposited data

Results flagged for a closer look

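Of 140 sets of 5 libraries (35 genes in 4 groups), 7 held a library whose gap to its nearest neighbour exceeded the 95% limit of Dixon's test, and chance flags about 5% of such sets. In refed K556R livers, Dpm1 was high in 2_b2, at 4.87 CPM against 2.85 to 3.30 CPM in the others. In the same group, Alg8 was high in 1_b1, at 10.8 CPM against 7.62 to 7.87 CPM, and Ganab was low in 1_b1, at 26.4 CPM against 30.3 to 31.7 CPM. In refed wild-type livers, Dpm1 was high in 1_b2, at 4.16 CPM against 2.77 to 2.88 CPM, and Alg12 was high in 3_b1, at 13.9 CPM against 11.6 to 12.0 CPM. In fasted wild-type livers, Gmppa was low in 3_b1, at 15.5 CPM against 17.2 to 17.5 CPM, and Alg14 was low in 2_b1, at 11.2 CPM against 12.0 to 12.2 CPM. Both high Dpm1 libraries belong to batch 2, and K556R refed 1_b1 is one of the libraries that stood apart by its proliferation and lymphocyte markers.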

How the results depend on the processing

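Of the 35 genes, 0 were called for genotype in fasted livers, in refed livers, on average or in the interaction, both with all libraries and under every alternative that was run. The refeeding calls, 21 of 35 in each genotype, were 17 in K556R livers and 19 in wild-type livers with a replicate block. Of 24 pairs of libraries with the same replicate number, 5 had an r over 0.1 (range -0.424 to 0.651). The highest, 0.651, was that of K556R fasted 1_b1 and K556R refed 1_b1, the 2 libraries that stood apart. Group and batch means were removed first, which itself shifts r, so these values cannot settle whether equal numbers mark paired libraries. Leaving out each library in turn gave 17 to 22 calls in K556R livers and 19 to 23 in wild-type livers, and the other alternatives, batch 2 alone aside, gave 16 to 22 and 19 to 25. Batch 2 alone, an alternative chosen after seeing the data and with 6 libraries, gave 13 and 8. The share of all genes called in each alternative is not given here, so nothing is read from how these refeeding counts differ. With batch 2 alone, the sign turned for Dolpp1 in wild-type refeeding, at -0.0065, and for Alg2 between the genotypes in refed livers, at 0.070. These were the turns among the genes named by the rule, in the comparisons they were named for. Over all 35 genes, batch 1 alone and batch 2 alone had the same sign for 28 in K556R refeeding, 29 in wild-type refeeding, 17 between the genotypes in refed livers and 22 in fasted livers. Dolpp1 lost its call in K556R refeeding in 7 settings and gained one in wild-type refeeding in 8, and the cause was not tested. The median refeeding change in K556R livers, 0.20, was 0.34 without K556R refed 1_b1 and 0.32 without K556R fasted 4_b1.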
